A study of Mus musculus with 2 samples.

Results

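The heat shock and J-domain chaperone genes were taken by name: every gene of the count tables whose symbol starts with Hspa, Hspb, Hspd, Hspe, Hsph, Hsp90 or Dnaj, leaving out names with "-ps". The rule found 75 of 32285 genes. The prefix also took in Hspb11 (a ciliary transport protein) and the binding partners Hspbp1 and Hspbap1. Their UMIs (unique molecular identifiers, each 1 captured RNA molecule) were read in a CD45+ sort from tumors of MC38, a colon carcinoma line of the mouse, in animals labelled WT. Tumors of the Control library had no treatment, and those of the IR library had received ionizing radiation as a single 20 Gy dose, with collection 4 days later. Both libraries pooled several tumors, so each group is 1 library and no difference below has a replicate check. The sample records name CD45+CD11b+Ly6Chi cells, a narrower gate than the CD45+ sort and both libraries also held T cell, NK cell and dendritic cell markers.

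Heat shock proteins are chaperones, which help other proteins to fold. HSP70 proteins (Hspa) bind unfolded chains, J-domain proteins (Dnaj) bring them clients and switch on their ATPase, HSP110 (Hsph1, Hspa4, Hspa4l) exchanges their nucleotide, HSP90 finishes client proteins such as kinases, HSP60 and HSP10 (Hspd1, Hspe1) form the folding chamber of mitochondria, and the small heat shock proteins (Hspb) hold aggregates. A cytosolic set is switched on by heat shock factor 1 when proteins unfold, and its strongest members, Hspa1a and Hspa1b, are also well known to come on in cells while a solid tissue is being dissociated, together with immediate early genes such as Fos, Jun and Atf3. Endoplasmic reticulum (ER) members such as Hspa5 answer to the unfolded protein response of that compartment.

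Barcodes with at least 1000 UMIs, 200 genes and at most 25% mitochondrial UMIs were kept, 4679 in Control and 3410 in IR, with a median of 7302 and 8269 UMIs and 6 barcode sequences in common. They were gated on marker UMIs that include no chaperone. The monocyte gate held 740 and 1056 barcodes (Control and IR), the macrophage gate 1881 and 403, the dendritic cell (DC) gate 192 and 203, the NK gate 234 and 366, the T gate 430 and 280 and the collagen gate 93 and 91. The neutrophil gate held 38 and 224 barcodes and the basophil gate 41 and 80. The collagen gate had collagen-cell markers at 8367 and 6515 CPM and Ptprc, which encodes CD45, at 13.4 and 10.4 CPM, against 230 to 1141 CPM in the 5 main gates. Levels are CPM, a gene's UMIs for every 1000000 UMIs of the gate in that library. Intervals are exact 95% Poisson intervals for a level and exact conditional intervals for a ratio of 2 levels, and they cover counting error only, neither tumor nor library variation.

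The 75 genes together took 0.622% to 0.880% of the UMIs of the monocyte, macrophage, DC, NK and T gates, and 1.35% and 1.47% of those of the collagen gate. In the monocyte gate their sum was 6957 CPM (Control) and 6218 CPM (IR), and in the T gate 8104 and 8278 CPM. No UMI of Dnajb7, Dnajb8, Dnajc5b, Dnajc5g or Hspb3 was found in either library, so 5 members had no value. Between 44 and 52 members had a mean of at least 10 CPM over both libraries in the 6 gates with 50 or more barcodes in each, and the call rule below used only these.

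**Figure D1:**
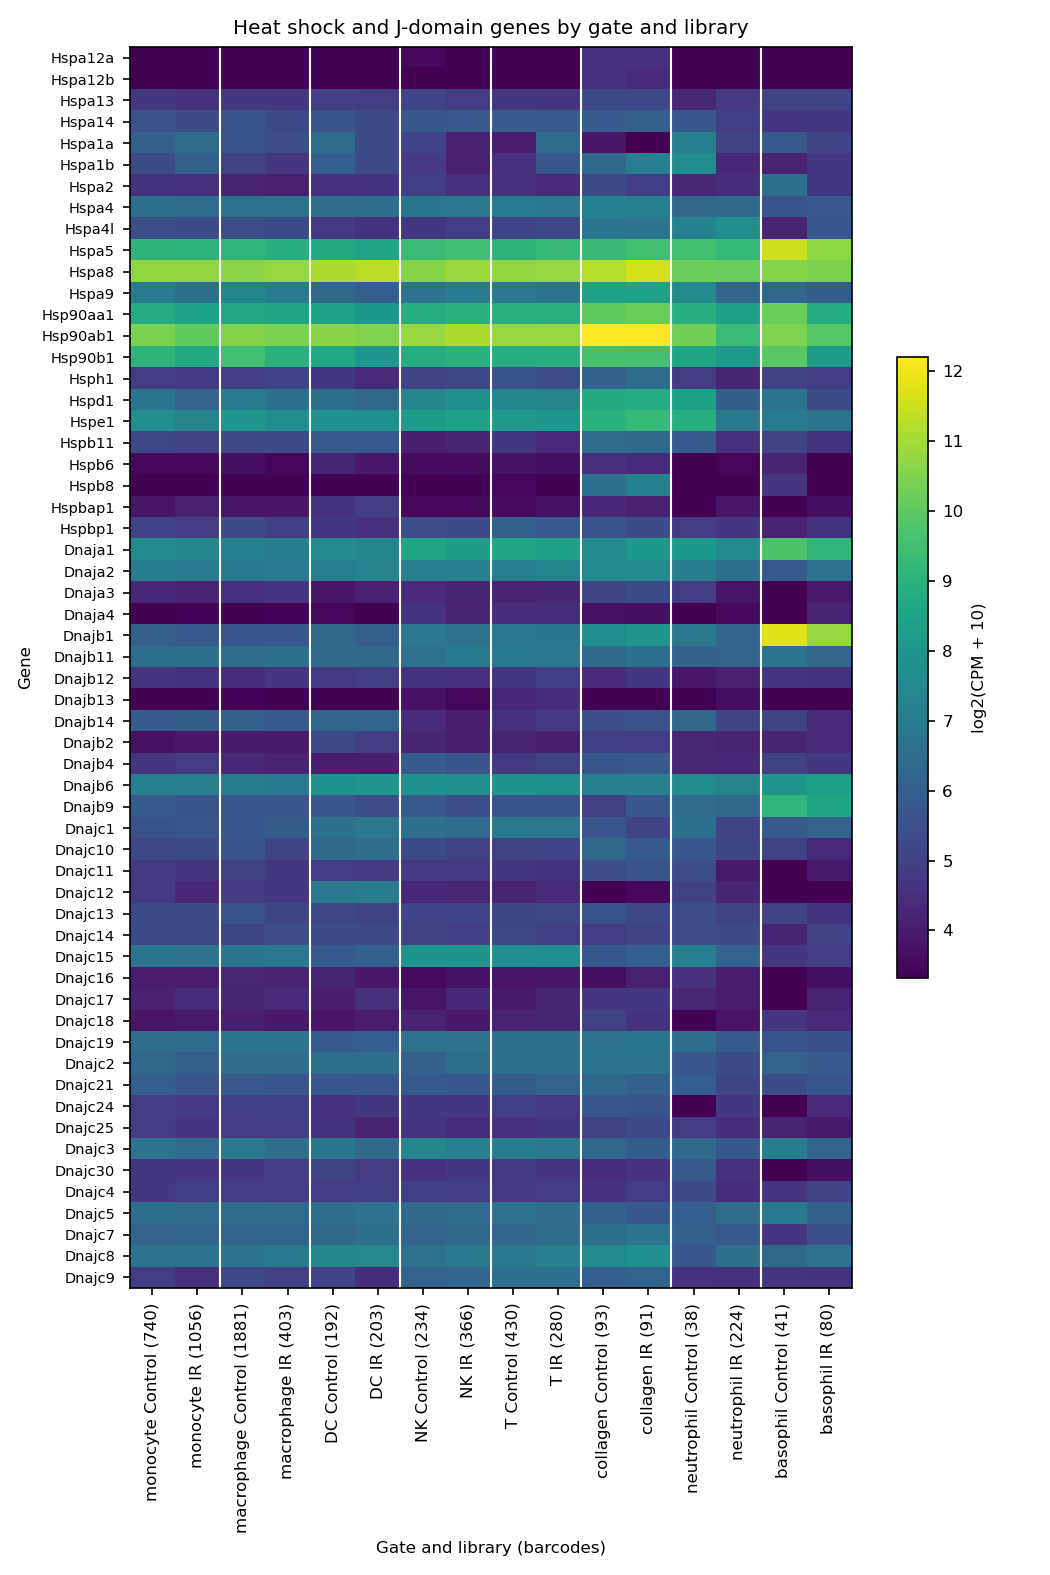
Levels of the 58 members with a mean of at least 10 CPM in at least 1 of 8 gates, as log2(CPM + 10), with 1 column for each gate and library and the number of barcodes in brackets. Most rows keep 1 colour across the Control and IR columns of a gate, Hspa8 and Hsp90ab1 are bright in every column, and the basophil columns stand out for Dnajb1, Hspa5 and Dnajb9.

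The design asks whether irradiation went with a different chaperone level in each lineage. Few members differed by as much as 1.5-fold. A member was called higher or lower when CPM plus 10 differed by 1.5-fold or more between IR and Control. In the monocyte gate 1 of 47 members was higher in IR and 1 lower, where 3.17% of all genes were higher and 1.49% lower. In the macrophage gate 0 of 46 were past it in either direction (3.23% and 2.75% of all genes). In the DC gate 0 of 47 were higher and 4 lower (4.05% and 4.02%), and in the NK gate 0 of 44 were higher and 2 lower (3.36% and 2.28%). In the T gate 2 of 47 were higher and 0 lower (4.14% and 1.17%), and in the collagen gate 3 of 52 were higher and 0 lower (3.15% and 2.92%). None of these 6 gates had more than 4 members past the fold. The members' median log2 ratio was -0.11 in the monocyte gate, -0.06 in the macrophage gate, -0.05 in the DC gate and -0.00 in the NK and T gates. Over all barcodes together, gated or not, 0 of 47 members were past 1.5-fold, where 3.83% of all genes were higher and 2.2% lower.

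Apart from Hspd1 in the monocyte gate and Dnajc9 and Hsp90b1 in the DC gate, every call in the monocyte, DC, NK and T gates was Hspa1a or Hspa1b. These neighbouring genes of chromosome 17 encode nearly the same inducible HSP70, so the split of reads between them is uncertain, and their sum is given too. Their promoters are shown because the pair is nearly identical there too. The 150 bases before each start matched at 149 of 150 positions, and the 250 bases at 247. In GRCm38.p6, Hspa1a read from chr17:34972157-34972306 and Hspa1b from chr17:34959239-34959388, both on the minus strand, 5′ to 3′ (RefSeq sequences). Capitals mark a pair of inverted GAA and TTC units 2 bases apart, GAANNTTC, the shortest form of the element that heat shock factor 1 binds.
Hspa1a: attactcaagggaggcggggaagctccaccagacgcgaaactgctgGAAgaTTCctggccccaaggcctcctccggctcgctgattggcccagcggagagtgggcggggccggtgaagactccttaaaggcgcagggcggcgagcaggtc
Hspa1b: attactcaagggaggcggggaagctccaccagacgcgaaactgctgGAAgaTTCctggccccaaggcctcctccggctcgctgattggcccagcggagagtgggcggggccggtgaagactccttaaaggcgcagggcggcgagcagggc

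Of the 75 members, 60 matched a RefSeq promoter. GAANNTTC or TTCNNGAA (each its own reverse complement) lay in the 250 bases before the start of 14 of 60 members and of 14.5% of 27025 genes. The longer form of 3 units, GAANNTTCNNGAA or its reverse complement TTCNNGAANNTTC, lay in 3 of 60 members (Dnajb6, Hspd1 and Hspe1) and in 0.514% of genes, and every such match also holds the shorter form.

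Hspa1a and Hspa1b differed between the libraries in opposite directions in different lineages. In the monocyte gate Hspa1a was at 55.6 CPM in Control (49.3 to 62.4) and 79.1 CPM in IR (73.7 to 84.8), and Hspa1b at 31.2 (26.6 to 36.4) and 56.9 CPM (52.3 to 61.8). Both were higher in IR, and Hspa1b was past 1.5-fold (log2 ratio of CPM plus 10 of 0.70). In the T gate Hspa1a was at 6.31 CPM in Control (3.61 to 10.2) and 76.6 CPM in IR (66.4 to 88.0), and Hspa1b at 13.0 and 43.6 CPM. The DC and NK gates showed the reverse. In the DC gate Hspa1a was at 78.2 CPM in Control (65.0 to 93.4) and 31.1 CPM in IR (24.1 to 39.5), and Hspa1b at 52.6 and 28.8 CPM. In the NK gate Hspa1a was at 24.2 and 7.67 CPM and Hspa1b at 7.05 CPM in IR, from 26 UMIs in Control and 23 in IR. The macrophage gate had 37.8 and 33.8 CPM of Hspa1a and 23.0 and 15.7 CPM of Hspa1b, both within 1.5-fold by the rule. Summed over both genes, the log2 ratio of CPM was 0.65 in the monocyte gate (0.49 to 0.81), 2.64 in the T gate (2.20 to 3.1), -0.30 in the macrophage gate (-0.51 to -0.09), -1.13 in the DC gate (-1.46 to -0.80) and -1.52 in the NK gate (-2.09 to -0.95).

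**Figure D2:**
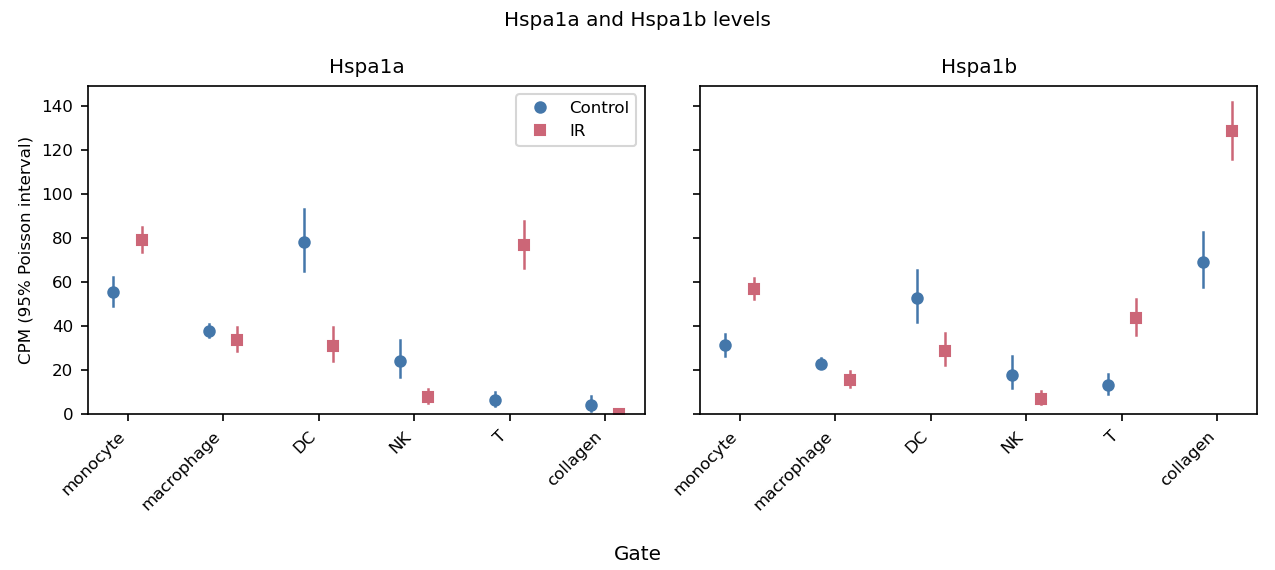
Levels of Hspa1a and Hspa1b in CPM (vertical axis, from 0) in 6 gates, Control as circles and IR as squares, with exact 95% Poisson intervals as bars. The IR point lies above the Control point in the monocyte and T gates and below it in the DC and NK gates, and in the collagen gate Hspa1a is at or near 0 while Hspa1b is at 69.3 and 128 CPM.

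These totals came from few barcodes. In the IR T gate 28 of 280 barcodes held all 317 UMIs of the pair, and 1 barcode held 98 of them (30.9%). Barcodes with at least 3 UMIs of the pair and 5 per 10000 UMIs, a limit chosen after the values were seen, are called rich here. They were 5 of 280 in the IR T gate and held 85.2% of the pair's UMIs, and 5 of 430 in the Control T gate with 49.0%. In the monocyte gate 21 of 740 Control barcodes and 30 of 1056 IR barcodes were rich, 2.84% in both libraries, and held 54.4% and 71.4% of the UMIs. Over the 5 main gates 83 of 3477 Control barcodes were rich (2.39%, exact binomial interval 1.91% to 2.95%) and 51 of 2308 IR barcodes (2.21%, 1.65% to 2.90%). The intervals of these shares overlap. Binomial intervals here and below cover the sampling of barcodes within 1 library only. The pooled share also mixes gates whose sizes differ between the libraries.

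The share of barcodes with any UMI of the pair depended on depth. With each barcode thinned to 1000 UMIs, it was 5.68% in the Control monocyte gate (4.12% to 7.59%) and 5.30% in the IR one (4.03% to 6.83%). In the T gate it was 2.33% (1.12% to 4.24%) and 1.43% (0.391% to 3.62%), below Control in IR although the CPM was higher. In the NK gate it was 2.14% (0.697% to 4.92%) and 0.820% (0.169% to 2.38%). All these pairs of intervals overlap. Without thinning, the shares were 20.3% and 24.1% in the monocyte gate, 6.84% and 6.83% in the NK gate, and 5.58% (3.61% to 8.19%) and 10.0% (6.75% to 14.1%) in the T gate, where the higher share lay in IR, opposite to the thinned one. Without the 1 barcode richest in the pair in each gate and library, the log2 ratio of Hspa1a in the NK gate was -0.44 in place of -1.66, while that of Hspa1b was -1.59 in place of -1.35. A stricter gate gave larger differences, with -3.49 for Hspa1a and -2.97 for Hspa1b in the DC gate and 3.92 for Hspa1b in the T gate. With each barcode counted once, the macrophage gate turned to 0.80 for Hspa1a (0.62 to 0.98), in place of -0.16, and 0.29 for Hspa1b, in place of -0.55. Without barcodes that held any UMI of 11 cycling genes (Mki67, Top2a and others), Hspa1a in the T gate had a log2 ratio of 0.24 in place of 3.60, and Hspa1b of -1.10 in place of 1.75. In the DC gate the same step gave -0.39 in place of -1.33 for Hspa1a and -0.10 in place of -0.87 for Hspa1b. The step left out 49.5% of Control and 51.1% of IR barcodes in the T gate, and 42.2% and 29.6% in the DC gate.

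**Figure D3:**
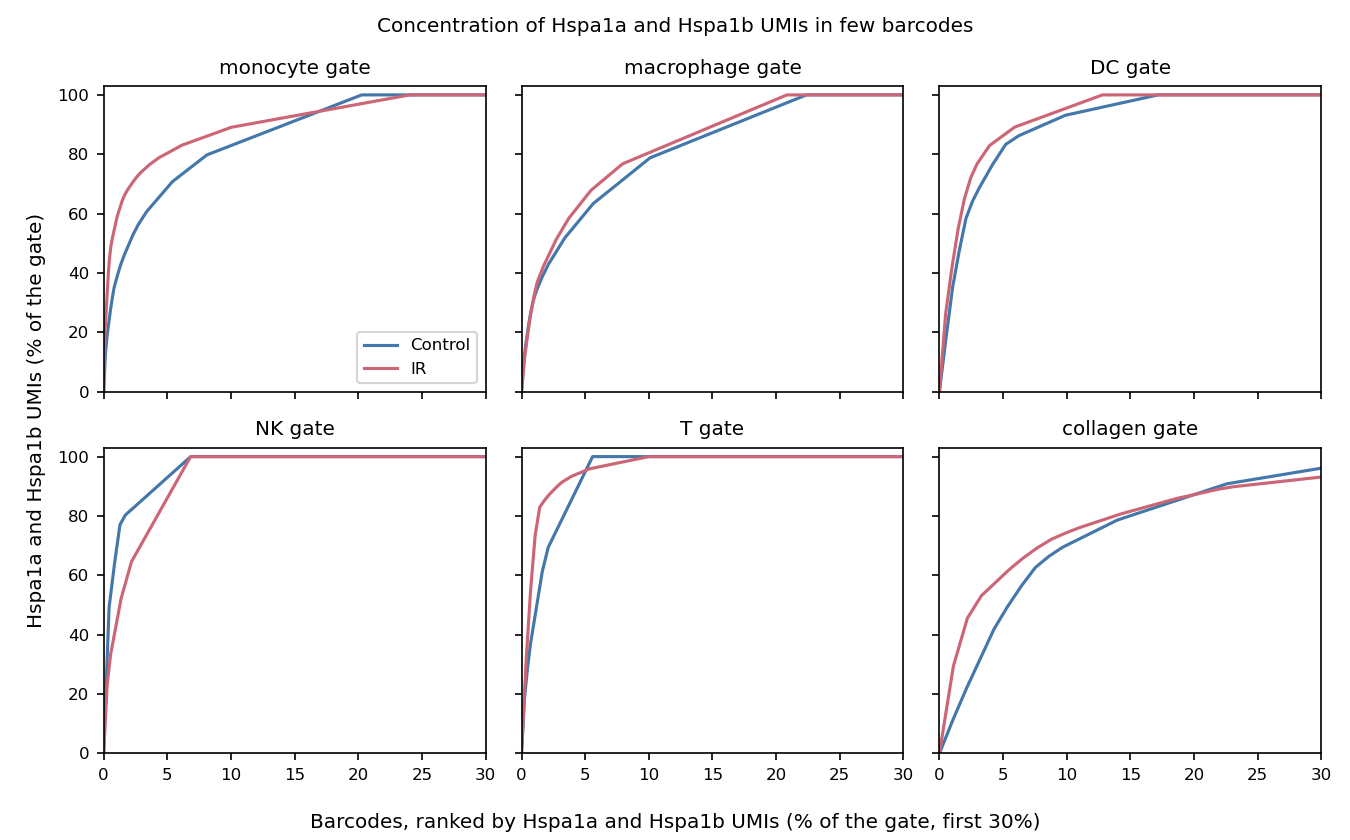
Cumulative share of the Hspa1a and Hspa1b UMIs of a gate (vertical axis, %) over its barcodes ranked by those UMIs (horizontal axis, % of barcodes, first 30%), for Control and IR in 6 gates. In the 5 immune gates the top 10% of barcodes held 78.4% to 100% of the UMIs. Only 5.58% to 10.0% of NK-gate and T-gate barcodes held any UMI of the pair, so 100% was fixed in advance there.

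Barcodes rich in Hspa1a and Hspa1b also carried more of the dissociation-linked immediate early genes. Of the 16 such genes, the summed level in rich and other barcodes was 18013 and 9989 CPM in the Control monocyte gate, 15067 and 10767 in the IR monocyte gate, 14436 and 8004 in the Control macrophage gate, 18931 and 7924 in the IR macrophage gate and 13891 and 7473 in the IR T gate. It was higher in the rich barcodes of both libraries in each of the 5 main gates, though the NK gate had only 3 rich barcodes in Control and 1 in IR. The Control neutrophil gate, with 3 rich barcodes, lay the other way, at 10248 and 12355 CPM. Atf3, a stress-induced transcription factor, was at 1163 CPM in the 21 rich barcodes of the Control monocyte gate and 291 CPM in the rest. Most other inducible chaperones were higher there too, though not all, and not in every gate. In the same 21 barcodes Hsp90aa1 was at 602 and 427 CPM, Dnajb1 at 123 and 51.8 CPM, and Hsph1 at 70.1 and 17.1 CPM, while Dnajb4 was at 11.7 and 15.5 CPM. In the 9 rich barcodes of the IR macrophage gate, Hsp90ab1 was at 993 against 1372 CPM and Hspd1 at 47.3 against 84.1 CPM, lower than in the rest. The 5 rich barcodes of the IR T gate had a median of 13682 UMIs, against 5732 in the rest. Their monocyte and macrophage markers were at 3203 against 1605 CPM, and their T cell markers at 3400 against 6923 CPM. Of these 5 barcodes, 4 held a cycling UMI, but the cycling genes of all 5 summed to 198 CPM, against 1211 CPM in the rest. In droplets with under 100 UMIs, which hold free RNA, Hspa1a was at 34.6 CPM in Control and 55.6 in IR, and Hspa1b at 23.3 and 47.9 CPM. With an estimated free RNA share of 2.21% to 8.26% subtracted, the log2 ratio of Hspa1a was 0.50 in the monocyte gate, 3.797 in the T gate, -1.48 in the DC gate and -2.23 in the NK gate, about as large or larger than without the subtraction. The part of dissociation and of mixed barcodes in these values was not tested.

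The sum of the cytosolic inducible set differed less than Hspa1a and Hspa1b did. Its 12 genes are Hspa1a, Hspa1b, Dnajb1, Dnaja1, Dnajb4, Hsph1, Hsp90aa1, Hspb1, Hspa8, Hsp90ab1, Hspe1 and Hspd1. Summed, they were at 4119 CPM in Control and 3677 CPM in IR in the monocyte gate, a log2 ratio of -0.16 (-0.19 to -0.14). The log2 ratio was -0.03 in the macrophage gate (-0.05 to -0.00), -0.01 in the DC gate (-0.05 to 0.03), 0.21 in the NK gate (0.17 to 0.25), 0.03 in the T gate (-0.01 to 0.07) and 0.16 in the collagen gate (0.13 to 0.18). None of these sums differed by 1.5-fold. They were carried by Hspa8, Hsp90ab1, Hspe1 and Hspd1. Without these 4 abundant genes the log2 ratio was -0.43 in the DC gate and -0.11 in the NK gate, the latter with its sign turned, so both then lay in the direction of the Hspa1a and Hspa1b values. Of the members of the set past the level filter, 1 of 11 in the monocyte gate was higher and 1 lower (3.17% and 1.49% of all genes), 0 of 10 in the macrophage gate were past the fold, 2 of 10 in the DC gate and 2 of 11 in the NK gate were lower (4.02% and 2.28%), and 2 of 11 in the T gate and 1 of 10 in the collagen gate were higher (4.14% and 3.15%).

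**Figure D4:**
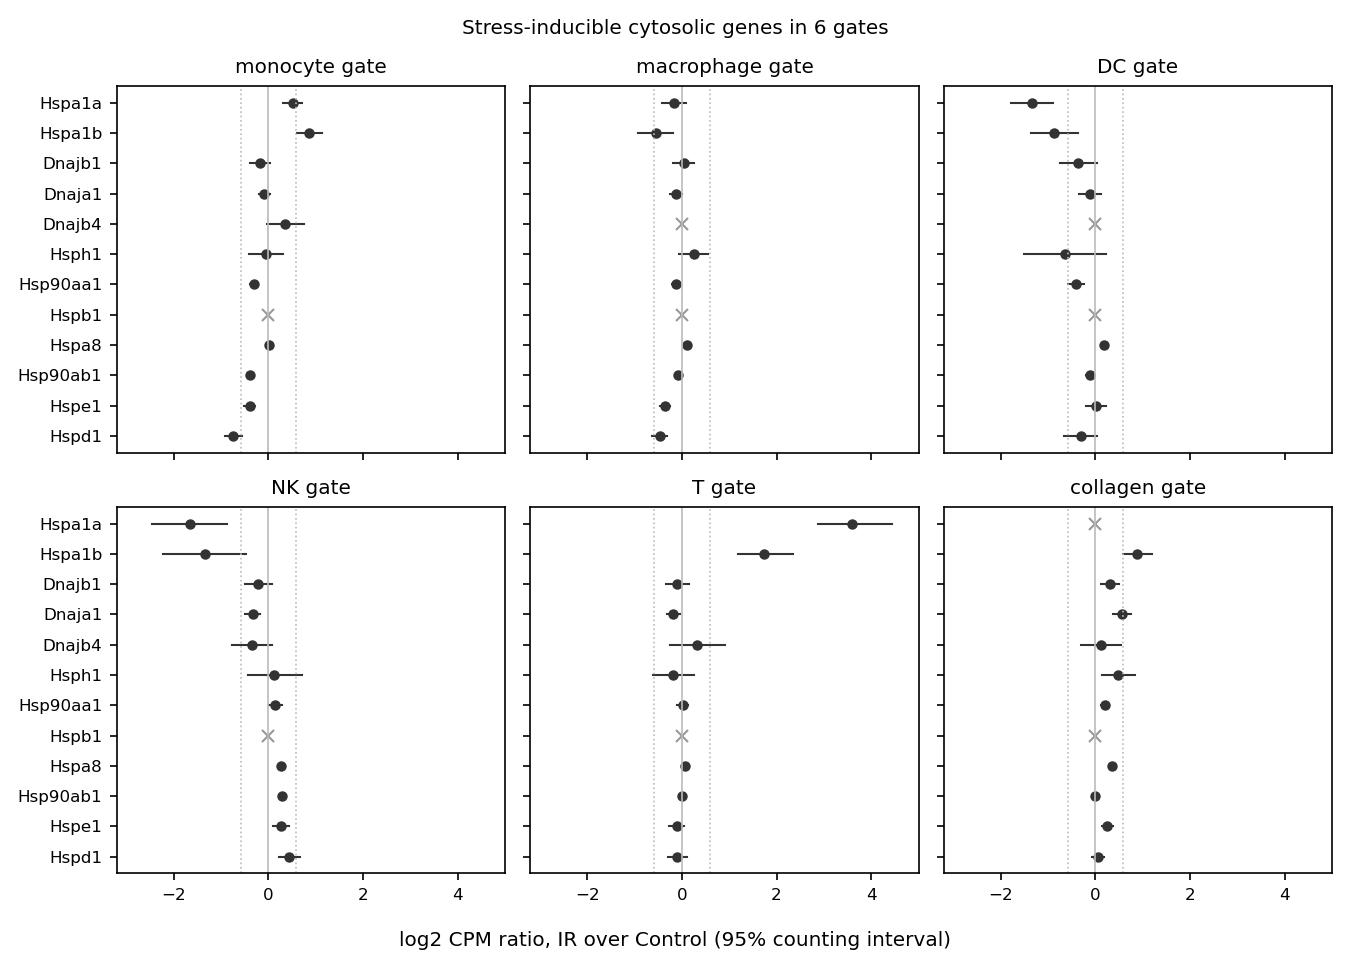
Log2 ratio of CPM, IR over Control (horizontal axis), of the 12 cytosolic inducible genes in 6 gates, with exact 95% counting intervals as bars, dotted lines at 1.5-fold and a grey cross at 0 for a gene under a mean of 10 CPM. In the T and NK gates Hspa1a and Hspa1b lie apart from the other genes of the set, on opposite sides of 0.

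The large terms of that sum were the constitutive HSP70 and the 2 cytosolic HSP90 genes. Hspa8, the HSP70 that cells make all the time, was at 1679 CPM in Control and 1699 CPM in IR in the monocyte gate, and between 1526 and 2467 CPM in the other main gates. Its highest main gate was the DC gate in both libraries, at 2182 CPM (2110 to 2257) and 2467 CPM (2401 to 2534). Hsp90ab1, the constitutive cytosolic HSP90, was lower in IR in the monocyte gate, at 1364 CPM (1332 to 1396) and 1039 CPM (1019 to 1059). In the NK gate it was higher in IR, at 1821 CPM (1752 to 1892) and 2219 CPM (2169 to 2271). Both differences were within 1.5-fold and beyond counting error. Without cycling barcodes the NK gate had 1681 CPM in both libraries (log2 ratio -0.00, -0.11 to 0.11), the T gate had a log2 ratio of -0.35 (-0.47 to -0.23) and the monocyte gate kept -0.35 (-0.41 to -0.29). In the T gate it was at 1786 and 1796 CPM, in the macrophage gate at 1447 and 1367 CPM and in the DC gate at 1537 and 1425 CPM. Hsp90aa1, the inducible HSP90, was at 433 and 349 CPM in the monocyte gate, 343 and 259 CPM in the DC gate, and 455 and 504 CPM in the NK gate.

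The J-domain members of the set stayed within 1.5-fold between the libraries. Dnajb1 (HSP40), the main partner of inducible HSP70, was at 54.2 and 47.8 CPM in the monocyte gate, 42.3 and 43.5 CPM in the macrophage gate, 69.3 and 53.9 CPM in the DC gate, 104 and 90.2 CPM in the NK gate and 106 and 99.4 CPM in the T gate. In all 5 gates the interval of its log2 ratio held 0. Dnaja1 had its highest main gates among lymphocytes, with 365 and 290 CPM in the NK gate and 364 and 321 CPM in the T gate, against 127 to 169 CPM in the myeloid and DC gates. Dnajb4 was at 50.4 and 39.6 CPM in the NK gate and between 6.41 and 23.1 CPM in the other main gates. Hsph1, the inducible HSP110, was between 10.7 and 37.5 CPM in the 5 main gates, with no difference past 1.5-fold by the rule. Hspb1 (HSP27) was under the filter in every one of these gates. In the macrophage gate its 66 IR UMIs lay in 8 barcodes, at 14.6 CPM and with 57.6% in 1 barcode, against 52 UMIs in 16 barcodes at 2.90 CPM in Control.

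The mitochondrial chaperones were lower in IR in the monocyte and macrophage gates. Hspd1 (HSP60) was at 99.5 CPM in the Control monocyte gate (91.0 to 108) and 59.6 CPM in the IR one (54.9 to 64.6), past 1.5-fold. Its partner Hspe1 (HSP10) was at 192 and 146 CPM there, and the mitochondrial HSP70 Hspa9 at 117 and 83.8 CPM. In the macrophage gate Hspd1 was at 115 and 83.6 CPM, Hspe1 at 242 and 189 CPM and Hspa9 at 153 and 115 CPM, none of them past 1.5-fold. The NK gate lay the other way, with Hspd1 at 153 CPM (133 to 174) and 206 CPM (191 to 223). In the T gate it was at 155 and 145 CPM and in the DC gate at 83.4 and 67.4 CPM. The J-domain members of this compartment were flatter: Dnajc15, a J protein of the inner membrane, was at 100 and 93.4 CPM in the monocyte gate, and Dnajc19 at 80.3 and 76.6 CPM. The 9 genes of the group summed to 635 CPM in Control and 500 CPM in IR in the monocyte gate, a log2 ratio of -0.35 (-0.41 to -0.28), to -0.26 in the macrophage gate (-0.31 to -0.20) and to 0.17 in the NK gate (0.08 to 0.27).

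Hspd1 and Hspe1 lie head to head on chromosome 1, and their promoter windows share 1 heat shock element. Its 30 bases, chr1:55088053-55088082 of GRCm38.p6 on the plus strand, are shown because both genes share it, with its 4 alternating TTC and GAA units in capitals.
Hspe1 and Hspd1: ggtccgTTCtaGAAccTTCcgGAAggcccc

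Other folding genes were read beside the mitochondrial group. The cytosolic TRiC chamber, which folds actin and tubulin, had 0 of 8 subunits past 1.5-fold in the monocyte gate, with a median log2 ratio of -0.36 and a summed level of 1086 and 836 CPM. Mitochondrial proteases and import factors had 0 of 8 past it, with a median of -0.21. Of all genes 3.17% were higher and 1.49% lower there. The 11 cycling genes summed to 288 CPM in Control and 85.1 CPM in IR in the monocyte gate, and to 908 and 359 CPM in the macrophage gate. Without barcodes with a UMI of those genes, 27.6% and 23.5% of the monocyte gate, Hspd1 was at 88.4 and 57.4 CPM (log2 ratio -0.62, -0.85 to -0.40), no longer past 1.5-fold by the rule, and the TRiC sum at 1030 and 814 CPM. In the macrophage gate the same step gave 99.6 and 76.8 CPM of Hspd1 (-0.38, -0.61 to -0.14). In the NK gate it gave 147 and 156 CPM of Hspd1 (0.09, -0.30 to 0.48) and a log2 ratio of -0.04 for the mitochondrial group (-0.21 to 0.12), so the higher NK values in IR were then within counting error. In the T gate the group was then lower in IR too, at -0.19 (-0.36 to -0.02), against -0.08 with all barcodes (-0.17 to 0.00). Hspa9 was at 116 and 58.6 CPM there (-0.98, -1.55 to -0.44), while the Hspd1 and Hspe1 differences lay within counting error. The group in the DC gate was at -0.08 (-0.27 to 0.11).

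Of the ER chaperones only Hsp90b1 gave a call in the 5 main gates. Hsp90b1 (GRP94), which folds integrins and Toll-like receptors, was lower in IR in the monocyte, macrophage and DC gates: 541 and 412 CPM in the monocyte gate, 720 CPM (707 to 732) and 485 CPM (464 to 505) in the macrophage gate, and 378 CPM (348 to 410) and 246 CPM (226 to 268) in the DC gate. Only the DC difference was past 1.5-fold by the rule, with a log2 ratio of CPM plus 10 of -0.60, and the macrophage gate lay just inside it at -0.56. In the NK gate Hsp90b1 was at 446 and 483 CPM and in the T gate at 453 and 460 CPM. Without cycling barcodes the log2 ratio of CPM in the DC gate was -0.12 (-0.38 to 0.15) in place of -0.62, and in the macrophage gate -0.54 (-0.64 to -0.45) in place of -0.57.

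Hspa5 (BiP), the HSP70 of the ER, was at 544 and 525 CPM in the monocyte gate, 551 and 467 CPM in the macrophage gate, 652 and 710 CPM in the NK gate and 543 and 628 CPM in the T gate. Its J-domain partners gave no call in these 5 gates. Dnajc3, an inhibitor of the kinase PERK, had the lower level in IR in all 5, with 105 and 79.9 CPM in the macrophage gate and 124 and 107 CPM in the T gate. Dnajb9 (ERdj4) was at 49.7 and 39.4 CPM in the monocyte gate and at 39.8 and 39.5 CPM in the T gate, and Dnajb11 (ERdj3) at 82.3 and 88.1 CPM and at 110 and 104 CPM. Dnajc10, an ER disulfide reductase, was at 39.9 and 25.4 CPM in the macrophage gate, within 1.5-fold by the rule. The 11 ER genes together had a log2 ratio of -0.18 in the monocyte gate, -0.34 in the macrophage gate (-0.38 to -0.30), -0.24 in the DC gate, 0.04 in the NK gate and 0.07 in the T gate. Outside the module, a list held 22 ER stress genes such as Xbp1, Ddit3 and Calr. Of these, 0 of 19 were past 1.5-fold in the monocyte gate and 1 of 19, higher, in the macrophage gate. Over all genes 3.17% were higher and 1.49% lower in the monocyte gate, and 3.23% and 2.75% in the macrophage gate. The median log2 ratios of the list were -0.14 and -0.22.

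The ER stress response element, CCAAT, 9 bases and CCACG, was searched for on both strands. It is 1 of the sites through which the unfolded protein response acts. It lay in the window of 3 of 60 members (Hspa5, Hsp90b1 and Dnajc3) and of 0.130% of genes. Hsp90b1 held 2 copies, and the one farther from the start is shown. The 29 bases around the element are given 5′ to 3′ on the gene's strand with CCAAT and CCACG in capitals, for Hspa5 at chr2:34772020-34772048 (plus), Hsp90b1 at chr10:86705633-86705661 (minus) and Dnajc3 at chr14:118937822-118937850 (plus).
Hspa5: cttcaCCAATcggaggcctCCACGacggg
Hsp90b1: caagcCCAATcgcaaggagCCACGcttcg
Dnajc3: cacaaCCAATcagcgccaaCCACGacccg
In the macrophage gate the log2 ratio of CPM was -0.57 for Hsp90b1, -0.40 for Dnajc3 and -0.24 for Hspa5. A match is a description of letters, and no binding was measured.

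The remaining calls were single genes. Dnajc9, a histone chaperone with a J domain, was at 24.4 CPM in Control (17.2 to 33.5) and 12.5 CPM in IR (8.27 to 18.3) in the DC gate, from 38 and 27 UMIs. It was at 60.8 and 65.0 CPM in the NK gate and 84.0 and 85.4 CPM in the T gate. The DC gate's cycling genes summed to 478 and 129 CPM, and without cycling barcodes Dnajc9 was at 14.2 and 10.2 CPM (log2 ratio -0.48, -1.73 to 0.80). The difference was then within counting error.

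The lineage differences that follow were picked after the values were seen and carry no test. The basophil gate held Mcpt8 and Cpa3, markers of basophils and mast cells, and its Control barcodes also held B cell and collagen-cell markers (1677 and 1134 CPM). Dnajb1 was at 3472 CPM there in Control (3156 to 3812) and 1767 CPM in IR (1630 to 1913), against 42.3 to 106 CPM in the 5 main gates and 191 and 237 CPM in the collagen gate. At least 1 Dnajb1 UMI was found in 26 of 41 and 48 of 80 basophil-gate barcodes. Thinned to 1000 UMIs, the shares were 56.1% (39.7% to 71.5%) and 42.5% (31.5% to 54.1%), against 3.47% to 12.9% in the main gates. No single barcode carried the level, since without the top barcode it was 2944 and 1630 CPM. Hspa5, at 2945 and 1626 CPM, and Dnajb9, at 559 and 366 CPM, were also above every other gate with 38 or more barcodes. Hspa1a was at 47.2 and 23.1 CPM, from 6 and 8 UMIs, so the inducible HSP70 pair was not high there beside Dnajb1. The immediate early genes summed to 43736 and 27542 CPM in this gate, against 5600 to 10896 CPM in the main gates, and ER stress genes had 11 of 18 lower and 1 higher in IR, where 21.7% of all genes were lower and 21.9% higher.

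In the basophil gate 13 of 42 members were past 1.5-fold lower in IR and 5 higher, where 21.7% of all genes were lower and 21.9% higher. In the neutrophil gate 22 of 45 were lower and 1 higher, where 28.9% of all genes were lower and 21.1% higher. With so large a share over all genes, nothing is read from these counts. The 38 Control neutrophil-gate barcodes were also uneven, with 46.1% of their UMIs in the 3 largest. Hspa1b was at 185 CPM in Control with them and 141 CPM without, and Hspd1 at 318 and 124 CPM. Hspa4l, an HSP110 protein, had its highest level in this gate in both libraries, at 138 CPM (92.3 to 198) and 197 CPM (173 to 224). Without those 3 barcodes it was at 203 and 213 CPM, against 14.9 to 34.3 CPM in the main gates. The collagen gate was also high, at 98.3 and 94.7 CPM, and its Control value lay inside the neutrophil gate's interval.

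The collagen gate carried members that the 5 main gates lacked or held at under 1.5 CPM. With almost no Ptprc RNA, its barcodes may not be CD45+ cells, and whether they are MC38 or stromal cells was not determined. Hspb8, a small heat shock protein that works with BAG3 in chaperone-assisted autophagy, was at 84.9 CPM in Control (72.0 to 99.6) and 139 CPM in IR (126 to 153), past 1.5-fold, and under 1 CPM in each of the 5 main gates. Hspa12a was at 12.9 and 13.7 CPM and Hspa12b at 13.4 and 11.0 CPM, and both were at 0 or under 1.5 CPM in the main gates. Hsp90ab1 was at 4700 CPM (4601 to 4802) and 4651 CPM (4574 to 4729), above 2219 CPM, the highest main-gate level. Hspd1, at 415 and 430 CPM, Hspe1, at 505 and 602 CPM, and Hspa9, at 331 and 335 CPM, were higher than in any main gate. Dnajb9 was at 21.8 and 43.2 CPM, past 1.5-fold.

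In the collagen gate the inducible HSP70 was Hspa1b almost alone. Hspa1b had 124 UMIs in Control and 384 in IR, 69.3 CPM (57.6 to 82.6) and 128 CPM (116 to 142), past 1.5-fold. Hspa1a had 7 UMIs in 2 barcodes in Control and 0 in 2988778 UMIs in IR, where a count of 0 allows up to 1.0 CPM. In the monocyte gate the ratio of Hspa1a to Hspa1b UMIs was 1.78 in Control and 1.39 in IR, and in the macrophage gate 1.65 and 2.15. Among barcodes of at least 10000 UMIs, with no match of depth above that, Hspa1a made up 0 of 380 UMIs of the pair in the IR collagen gate (exact binomial upper bound 0.966%) and 58.4% of those in the IR monocyte gate (54.7% to 62.1%). In Control it was 0.990% (0.0251% to 5.39%) and 55.1% (47.4% to 62.6%). Of the 384 Hspa1b UMIs in IR, 29.4% lay in 1 barcode, and 52 of 91 barcodes had at least 1. The immediate early genes of this gate summed to 9577 and 12477 CPM, and their part in the result was not tested.

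Further members differed between lineages in both libraries. Dnajc12, a co-chaperone of aromatic amino acid hydroxylases, was at 108 CPM (92.1 to 125) and 122 CPM (107 to 137) in the DC gate and at 8.28 to 17.6 CPM in the other main gates. Dnajc15 was highest in the NK gate (234 and 220 CPM) and the T gate (196 and 191 CPM), and was at 47.5 and 57.6 CPM in the DC gate. The intervals of the NK and T gates overlapped in both libraries (210 to 261 and 179 to 214 in Control, 204 to 237 and 175 to 209 in IR). Dnajb14, an ER-membrane J protein, was lower in lymphocytes, at 11.7 and 6.75 CPM in the NK gate and 13.8 and 18.2 CPM in the T gate, against 46.8 to 65.0 CPM in the monocyte, macrophage and DC gates. Hspb11 was at 6.91 and 7.97 CPM in the NK gate and 47.5 and 46.9 CPM in the DC gate. Its highest level was in the collagen gate, at 76.0 and 74.6 CPM.

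**Figure D5:**
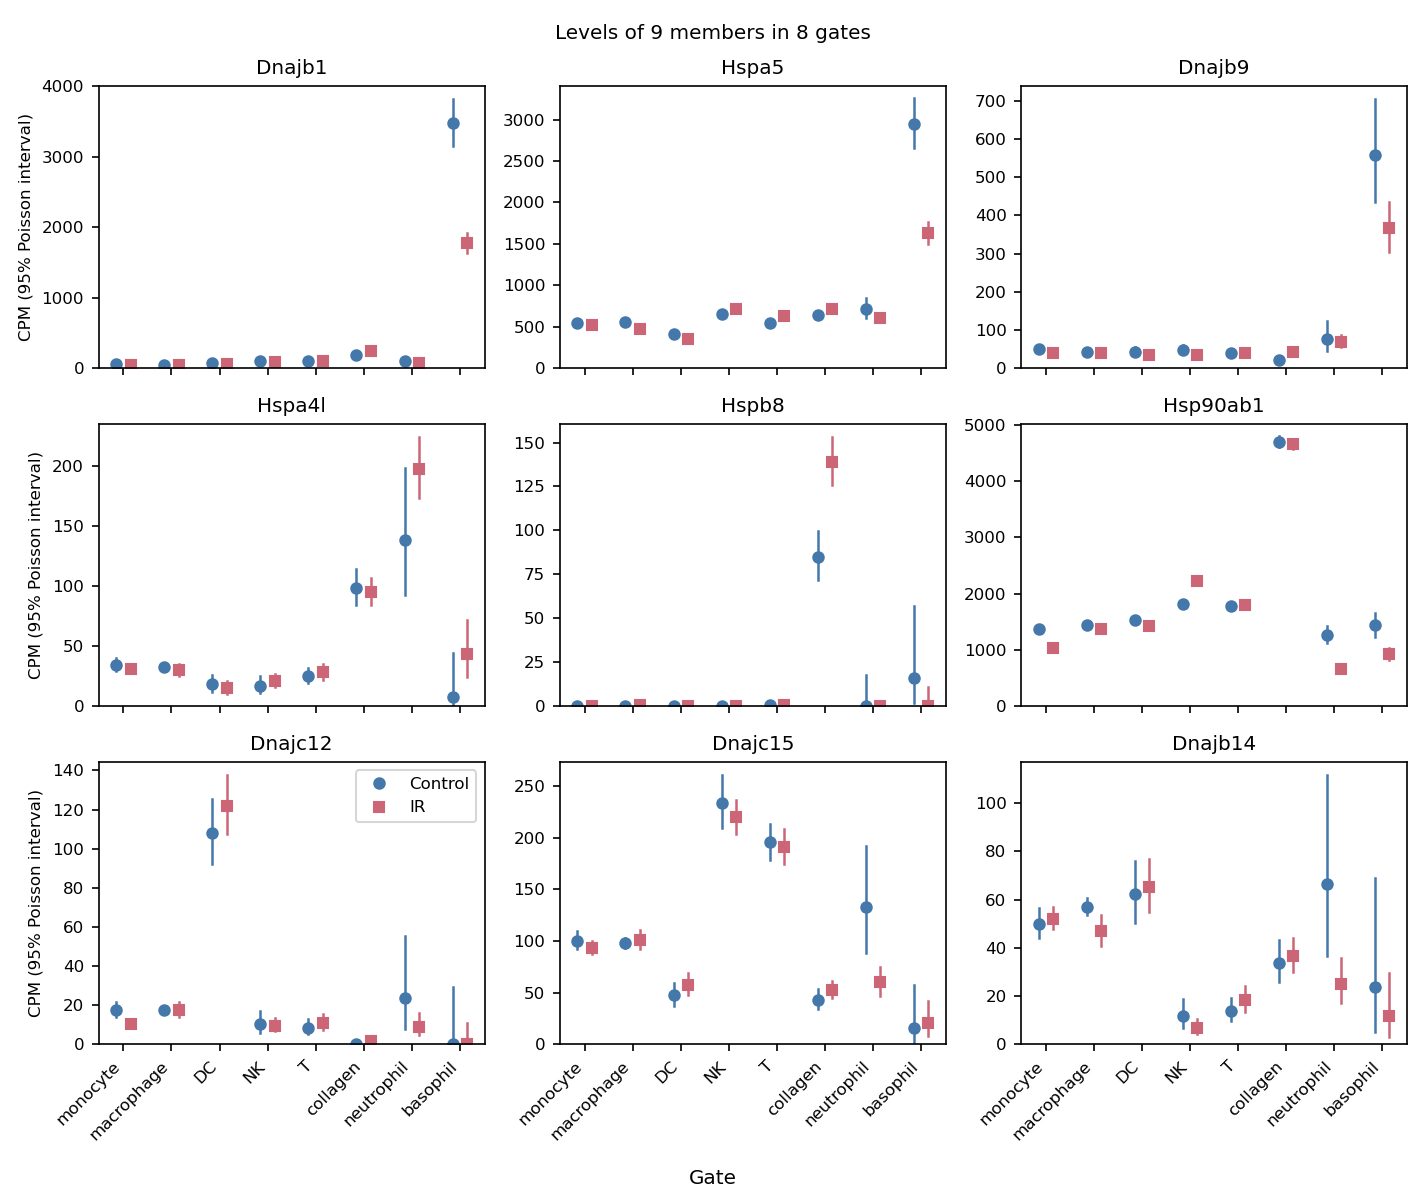
Levels in CPM (vertical axis, from 0) of 9 members in 8 gates, Control as circles and IR as squares, with exact 95% Poisson intervals as bars. Dnajb1, Hspa5 and Dnajb9 are highest in the basophil gate, Hspb8 and Hsp90ab1 in the collagen gate, Hspa4l in the neutrophil gate, Dnajc12 in the DC gate and Dnajc15 in the NK and T gates, in both libraries.

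The immediate early genes linked to dissociation were close between the libraries in the main gates. All 16 passed the filter, and their summed level was 10256 CPM in Control and 10896 CPM in IR in the monocyte gate, 8125 and 8078 in the macrophage gate, 8591 and 7561 in the DC gate, 6194 and 5600 in the NK gate and 7843 and 7658 in the T gate. The count past 1.5-fold was 2 higher and 1 lower in the monocyte gate, 1 and 1 in the macrophage gate, 0 and 5 in the DC gate, and 2 and 1 in both the NK and the T gates. The 5 lower genes of the DC gate stand beside 4.02% of all genes. Over all genes of the 5 main gates 3.17% to 4.14% were higher and 1.17% to 4.02% lower. Hspa1a and Hspa1b were lower in IR in both the DC and the NK gates. In the NK gate 2 immediate early genes were higher and 1 lower, while their summed log2 ratio was -0.15 (-0.18 to -0.11). Whether the pair followed these genes was not tested. Across single barcodes, which share 1 library and differ in depth, Spearman's rho between the UMI share of the inducible set without its 4 most abundant genes and that of the immediate early genes was 0.10 to 0.36 in the 10 sets of main gate and library, a weak relation.

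Co-chaperones and heat shock factors gave few calls, and so did all genes. Of 22 genes such as Hsf1, Bag3, Stip1 and Cdc37, 0 of 18 were past 1.5-fold in the monocyte gate. The count was 0 of 19 in the macrophage, NK and T gates and 1 of 18, lower, in the DC gate. Their median log2 ratio lay between -0.12 and 0.07 in these gates. Over all genes of the same gates 3.17% to 4.14% were higher and 1.17% to 4.02% lower, the last in the DC gate. With so short a list, these counts do not set the co-chaperones apart from all genes.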

How the data were processed

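Per the labels and file headers, each library was a 10x 3′ run aligned to mm10 with Cell Ranger (6.0.1 in the submitters' processing notes, 4 in the file header), and the authors deposited its unfiltered matrix of raw counts (UMIs), 48593879 in Control and 42406461 in IR. Gate cutoffs on marker UMIs per 10000 were set after the files were read and used no chaperone. They left 1013 and 699 barcodes without a gate. Doublets were not called, and an alternative left out the 6% largest barcodes. UMIs were summed per gate and library. Since a group is 1 library, there is no test, and calls rest on size (1.5-fold in CPM plus 10, mean CPM of 10 or more). The members and gene lists were chosen with earlier results of these data known. The rule for named genes took the 12 inducible genes, ER and mitochondrial members past the level filter, and up to 8 calls per direction in each main gate. Members that differ by lineage were named after their values were seen. Python 3.11.15, scipy 1.17.1 and, for TMM factors, edgeR 4.0.16 were used. Promoters are from RefSeq (GRCm38.p6).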

Additional observations from a re-analysis of the deposited data

Results flagged for a closer look

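The summed log2 ratio of Hspa1a and Hspa1b, IR over Control, had opposite signs in different gates: 0.65 in the monocyte gate, 2.64 in the T gate and 0.81 in the collagen gate, against -1.13 in the DC gate and -1.52 in the NK gate. Each group is 1 library, so the difference between gates was not tested. In droplets with under 100 UMIs, which were used only to estimate free RNA, Hspa1b was at 47.9 CPM in IR (41.3 to 55.1) and 23.3 CPM in Control (19.4 to 27.8).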

How the results depend on the processing

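No paired analysis was possible because each group is 1 library. The log2 ratio of the inducible set moved beyond its counting interval as follows. Without the 6% largest barcodes it was -0.13 in the monocyte gate, 0.15 in the NK gate and -0.026 in the T gate. With TMM scaling it was -0.10 (monocyte), 0.25 (NK) and, with the sign turned, 0.014 (macrophage). Over totals without mitochondrial and ribosomal genes it was -0.24 (monocyte), -0.11 (macrophage), -0.090 (DC) and -0.036 (T). Without the 4 abundant genes it was -0.10 (monocyte), -0.093 (macrophage), -0.43 (DC), 0.079 (T) and, with the sign turned, -0.11 (NK). A stricter gate gave 0.28 (NK), and each barcode counted once gave 0.092 (NK) and -0.0057 (T). The number of members past 1.5-fold became 4 with CPM plus 1 and 1 at a mean of at least 50 CPM in the monocyte gate. In the macrophage gate it became 1 without the 6% largest barcodes, with the stricter gate, with CPM plus 1 and with no filter, and 3 over the reduced total or with each barcode counted once. It became 2 in the DC gate without the largest barcodes, with the stricter gate and at 50 CPM. In the NK gate it became 4 with the stricter gate or CPM plus 1 and 0 at 50 CPM, as it did in the T gate. 2 further alternatives were chosen after seeing the data. Without the barcode richest in Hspa1a and Hspa1b the NK count was 0. Without cycling barcodes the set's log2 ratio was -0.11 (monocyte), 0.12 (DC), 0.023 (NK) and -0.16 (T), and the count 1, lower in IR, in the macrophage, DC and NK gates and 5 in the T gate (1 higher and 4 lower, against 2 higher and 0 lower with all barcodes). The monocyte count stayed at 2, but with 2 higher and 0 lower, against 1 and 1. Of single genes, Hspa1a (0.80) and Hspa1b (0.29) changed sign in the macrophage gate with each barcode counted once, and Hspa1b in the T gate without cycling barcodes (-1.10). In all, 21 of 180 single-gene values moved past their interval and 2 turned. The causes were not tested. With 1 library per group, variation between tumors or libraries cannot be told apart from irradiation.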
